A study of Mus musculus with 10 samples.

Results

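The cells described here were taken as adult fibroblasts, although some carried tendon, cartilage or bone markers. They come from the mouse supraspinatus tendon enthesis, the site where this shoulder tendon joins bone. They were chosen from the droplet library of postnatal day 56 (P56) by a rule on unique molecular identifiers (UMIs, counted RNA molecules): at least 1 UMI of Pdgfra, at least 2 of Col3a1, and 0 of Ptprc, Cdh5, Tnmd, Pi16, S100g and Col22a1. The rule was applied to the 5131 P56 cells that had 500 genes or more and no more than 10% of counts from mitochondrial genes. It was met by 919 cells (17.9%, exact binomial 95% interval 16.9 to 19.0). The droplet libraries hold 14371 barcodes in all. The 919 cells are called Pi16-negative cells here. Ptx3 was found in 98 of them and not in the other 821, and these sets were compared.

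The series holds 3 droplet libraries of whole entheses from wild-type C57BL/6 mice at P11, P18 and P56, and 7 sorted plates, 96 wells each, with Gli1-lineage cells (Gli1CreERT;Ai14) of 7 ages between P7 and P42. Per the labels, droplet cells came from pooled entheses and were sorted as negative for the leukocyte protein Cd45 and the dead-cell dye DAPI. In the plate mice, tamoxifen given at P5 and P7 made Gli1-expressing cells, and the cells derived from them, fluoresce red. Each age was 1 library in each assay, so no comparison below carries a test, and every interval covers counting error only.

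Fibroblasts of loose connective tissue carry the receptor Pdgfra and make collagens and decorin. A Pi16-positive subset lies around vessels in many tissues and is regarded as a progenitor-like reservoir. Ptx3 encodes a long pentraxin, a secreted pattern-recognition protein that binds complement components and, with the protein made from Tnfaip6, crosslinks hyaluronan. Its transcription is induced by inflammatory signals such as interleukin-1 and tumour necrosis factor.

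The 919 cells held 9027236 UMIs, with a median of 8003 per cell (1202 to 47064). The Pi16-positive cells, which met the same rule with at least 1 Pi16 UMI, numbered 221 (median 7021 UMIs). Tendon cells, chosen by at least 1 Tnmd UMI, numbered 774 (median 6830.5), and endothelial cells 365 (median 4950). The same rule found 489 of 2952 cells at P11 (median 14059 UMIs) and 234 of 5396 at P18 (median 9566.5). The droplet libraries shared 4, 6 and 9 barcode sequences pair by pair. The rule leaves out cells by zero counts, and a zero in a cell of this depth does not show that the gene is silent. At the edges of the rule, 355 cells had exactly 1 Pdgfra UMI (median 7182 UMIs, 39 with Ptx3), and 662 cells met everything except Pdgfra (median 5629 UMIs, 48 with Ptx3). Cells with exactly 2 Col3a1 UMIs numbered 51, and 84 cells with exactly 1 Col3a1 UMI otherwise met the rule.

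General fibroblast genes were present throughout, but 3 of the 4 genes that name this population were not. Dcn, which encodes the proteoglycan decorin, was found in 918 of the 919 cells, Gsn (gelsolin) in 917 and Col1a1 (type I collagen) in 905. Ccl11, the eosinophil chemokine eotaxin, was found in 178 cells (19.4%), and Smoc2, a matricellular protein, in 355 (38.6%). Ptx3 was found in 98 (10.7%, 95% interval 8.74 to 12.8). Only Pdgfra was in all of them, which the rule fixed. The set is therefore called by its rule, and Ccl11, Smoc2 and Ptx3 are treated as genes of subsets. Leukocyte and endothelial genes were near 0: Tyrobp had 0 UMIs (95% upper limit 0.409 CPM, where CPM are counts scaled to 1000000 per set) and Pecam1 2.22 CPM. The mural gene Rgs5 stood at 37.1 CPM from 45 cells, and the muscle gene Acta1 at 40.9 CPM from 72 cells. No gene of the endothelial, immune or erythroid marker lists reached 100 UMIs in the contrast of cells with and without Ptx3.

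Ptx3 transcripts were concentrated in few cells. The 919 cells carried 804 Ptx3 UMIs, or 89.1 CPM (95% interval 83.0 to 95.4). Of the 98 positive cells, 49 had 1 UMI, 16 had 2, 30 had at least 5 and 6 had at least 30, and the highest had 139. The 10 highest cells held 65.4% of the UMIs. Endothelial cells were taken as a gauge of free RNA, and whether they make Ptx3 themselves was not tested. Of these, 12 of 365 had a Ptx3 UMI (3.29%), each with exactly 1, among 2139520 UMIs in all. At that rate, the 9027236 UMIs of the Pi16-negative cells would hold about as many stray Ptx3 UMIs as there were cells with 1 UMI. Those 49 of the 98 cells are therefore the less certain part of the positive set. After thinning every cell to 2000 UMIs, the share with Ptx3 was 5.81% (95% interval 4.38 to 7.53) in Pi16-negative cells, of which 7 shallower ones were left out. In endothelial cells, whose shallower cells were also left out, it was 0.94% (0.194 to 2.72).

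Ptx3 was not particular to the Pi16-negative cells. At P56 it stood at 216 CPM in Pi16-positive cells (95% interval 196 to 237; 32 of 221 cells, 14.5%) and at 176 CPM in Tnmd-positive tendon cells (166 to 186; 78 of 774 cells, 10.1%). Both levels lay above the 89.1 CPM of the Pi16-negative cells, and their intervals did not overlap with it. The thinned shares were closer, at 9.09% (5.64 to 13.7) and 6.12% (4.53 to 8.06), and overlapped with that of the Pi16-negative cells. The 10 highest cells held 89.3% of the Ptx3 UMIs among Pi16-positive cells and 56.0% among Tnmd-positive cells. At the younger ages the rule-matched cells had 30.1 CPM at P11 (26.2 to 34.4; 61 of 489 cells) and 26.4 CPM at P18 (20.2 to 33.7; 10 of 234 cells). In all 5131 kept P56 cells there were 394 with Ptx3 (7.68%).

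**Figure D1:**
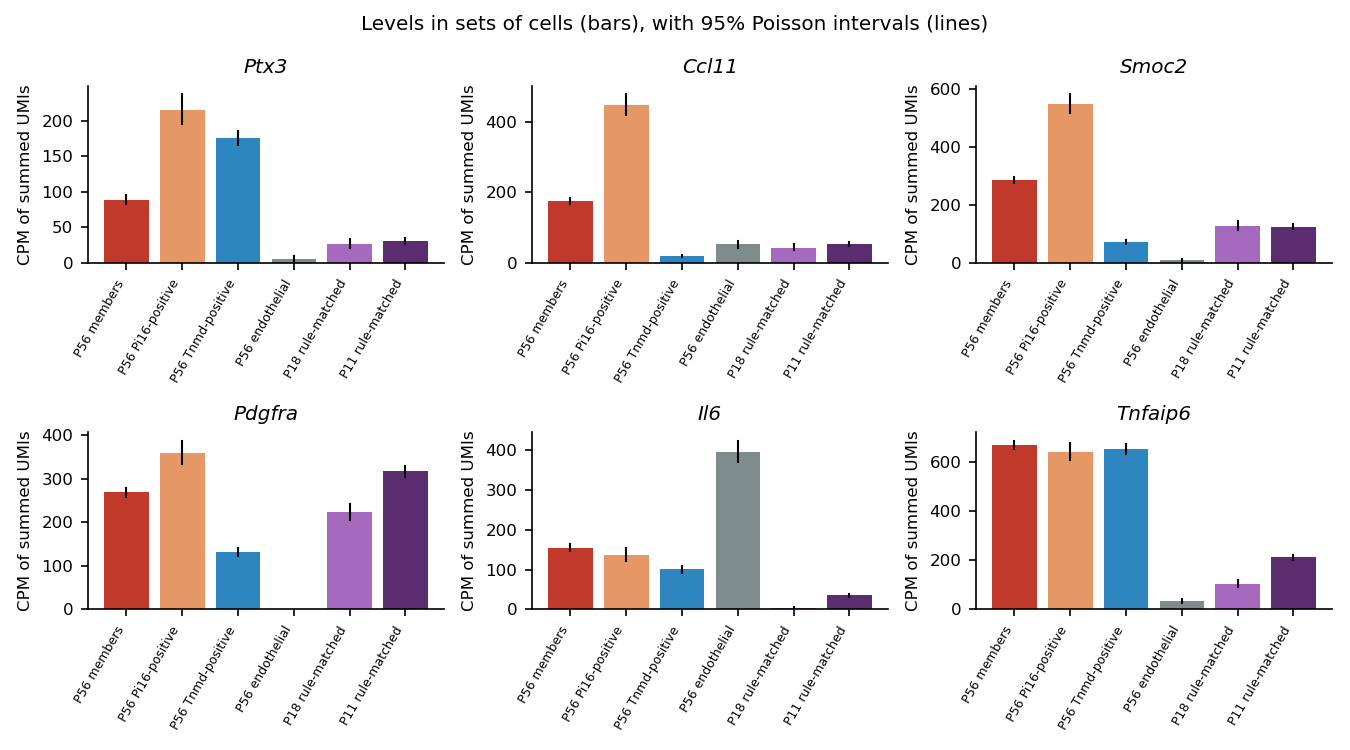
Summed counts scaled to CPM (linear axes) of 6 genes in Pi16-negative cells at P56 (members), the other cell sets of that library and the rule-matched cells of P18 and P11; lines are exact Poisson 95% intervals. Ptx3 and Smoc2 are higher in Pi16-positive than in Pi16-negative cells, and Il6 is highest in endothelial cells.

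In the contrast of Ptx3-positive with Ptx3-negative cells, a number of innate defence genes were at least 2-fold higher in the positive cells. Of the genes measured, 6 of 12 tendon genes and 4 of 9 joint-lining genes were at least 2-fold lower. UMIs were summed over each set, scaled to CPM, and a gene was counted when its CPM differed at least 2-fold with at least 100 UMIs in both sets together. Of 7269 genes, 120 were higher by that measure (1.65%) and 308 lower (4.24%), and the median log2 ratio of all genes was −0.14. With TMM scaling the counts were 154 and 226. Ptx3 itself defines the sets and is left out of what follows. The median depth was 8664.5 UMIs in positive and 7949 in negative cells.

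The cytokine gene Il6 stood at 466 CPM in the cells with Ptx3 and 116 CPM in those without (log2 ratio 2.0, 95% interval 1.84 to 2.17). It was found in 49 of 98 cells against 155 of 821, and after thinning in 27.6% (19.0 to 37.5) against 10.9% (8.87 to 13.3). The intervals of these shares did not overlap. Of the 11 cytokine and receptor genes with enough UMIs, 4 were at least 2-fold higher: Il6, the interleukin-1 receptor Il1r1 (log2 1.16), the oncostatin M receptor Osmr (1.07) and Il4ra (1.45). Tnfrsf11b, the decoy receptor osteoprotegerin, was lower (log2 −1.97). Cells with at least 2 Ptx3 UMIs gave a log2 ratio of 2.76 for Il6.

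Complement genes were higher in cells with Ptx3. Of 11 measured, C3, C4b, C1ra and C1s1 were at least 2-fold higher, and the list's median log2 ratio was 0.83. C3, the central component of all complement pathways, stood at 556 against 147 CPM (log2 1.92, 1.77 to 2.07). C4b stood at 508 against 160 CPM (1.67), and its reads may be shared with the near-identical copy C4a. The C1 proteases C1ra and C1s1 had log2 ratios of 1.20 and 1.24. After thinning, C3 was found in 39.8% of positive cells (30 to 50.2) and in 15.5% of negative cells (13.1 to 18.1).

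Among 10 chemokine genes measured, 4 were at least 2-fold higher. The neutrophil attractant Cxcl1 stood at 4394 against 1944 CPM (log2 1.18, 1.13 to 1.22) and Cxcl2 at 292 against 88.5 CPM (1.72, 1.52 to 1.92). The monocyte attractant Ccl2 reached a log2 ratio of 1.03 (0.96 to 1.10), and Cxcl12, which retains progenitor cells in their niches, 1.19. Ccl11 did not differ beyond counting error (192 against 174 CPM, log2 0.15, −0.08 to 0.37), and Smoc2 was higher by less than 2-fold (407 against 272 CPM, 0.58). Of the 4 genes that name the population, only Ptx3, whose difference the choice of cells fixed, differed at least 2-fold.

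Genes known as NF-kB targets were shifted as a list: 17 of 18 measured had a ratio above 1, against 36.3% of all genes, and 7 were at least 2-fold higher. The list's median was 0.79. Tnfaip2 stood at 674 against 253 CPM (log2 1.41), the adhesion molecule Icam1 at 344 against 150 CPM (1.20) and the RNase Zc3h12a at 61.7 against 23.3 CPM (1.41). Nfkb1 had a log2 ratio of 1.02, Bcl3 1.10, Birc3 1.26 and Vcam1 1.24. Nfkbia, an inhibitor of NF-kB, was 0.20 (0.11 to 0.29). Pentraxin and hyaluronan genes included Tnfaip6, whose protein acts with pentraxin 3 (1517 against 564 CPM, log2 1.43, 1.34 to 1.51), and the hyaluronan synthase Has1 (1331 against 651 CPM, 1.03). In the acute-phase list Serpina3n (1.67) and the metalloreductase Steap4 (1.93) passed 2-fold, of 8 measured. Hmox1, which degrades heme, stood at 1451 against 445 CPM (1.70).

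Immediate-early genes, which are induced within minutes by stress and by tissue dissociation, had ratios above 1 in 14 of 25 cases, against 36.3% of all genes, and a median log2 ratio of 0.18 beside −0.14 for all genes. At the 2-fold threshold, Ier5 (log2 1.12) and Myc (1.17) were higher, Egr2 was lower (−1.31), and Fos was lower by less than 2-fold (670 against 1314 CPM, −0.97). After thinning, Fos was found in 44.9% of positive cells (34.8 to 55.3) and 49.0% of negative cells (45.5 to 52.5). No gene of the 14 heat shock genes and none of the 7 measured prostaglandin genes passed 2-fold. Ptgs2, the inducible cyclooxygenase, had a log2 ratio of 0.88.

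The lower genes included tendon and lining genes. Of 12 tendon genes measured, 6 were at least 2-fold lower in cells with Ptx3: Fmod (55.8 against 353 CPM, log2 −2.66), Chad (−4.94), Cilp2 (−5.0, −7.28 to −3.45), Angptl7 (−3.27), Kera (−4.45, −9.77 to −1.96) and Egr2. Kera had 1 UMI in the cells with Ptx3 and Cilp2 had 3. Of 9 genes of joint-lining fibroblasts, Crabp2 (95.6 against 235 CPM, −1.30), Htra4, Tspan15 and Clic5 were at least 2-fold lower and Has1 higher. Summed over the 9 genes, the level was not lower in cells with Ptx3 (4241 against 3692 CPM). Among the lowest ratios were those of the bone and cartilage genes Spp1 (1.99 against 220 CPM, −6.79, −9.84 to −4.93) and Cytl1 (−6.22, −9.26 to −4.36), each with 2 UMIs in the cells with Ptx3. Some extreme ratios rested on 1 cell: among negative cells, 1 cell held 98.6% of the Col2a1 UMIs and 71.6% of the UMIs of the neuropeptide gene Npy (−6.66, −11.96 to −4.17, from 1 UMI in positive cells). All 5 measured muscle genes (Acta1, Tnnt3, Ckm, Tnni2 and Mylpf) were also lower, by −4.06 to −2.49, and 1 negative cell held 77.0% to 89.5% of the UMIs of each. Among positive cells, 1 cell held 92.5% of the UMIs of Dcaf17 and 76.3% of those of the stromelysin Mmp3 (log2 2.31). With at most 5% mitochondrial counts and at least 1000 genes per cell, the Mmp3 ratio was 0.18. Leaving out genes with over 20% of a set's UMIs in 1 cell, a choice made after seeing the data, left 96 higher and 265 lower genes.

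**Figure D2:**
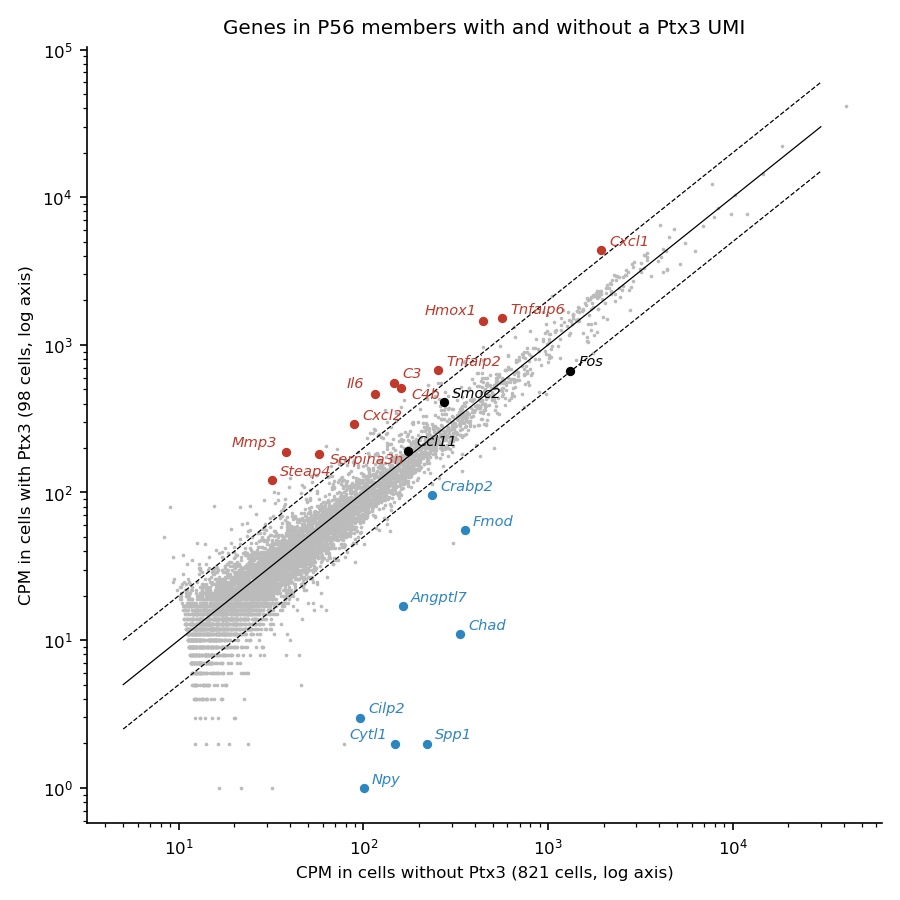
CPM of each gene in the 98 cells with Ptx3 (vertical) against the 821 without (horizontal), both on log axes; the solid line is equality, the dashed lines 2-fold, and genes at 0 in either set are not drawn. Il6, C3, C4b and Hmox1 lie above the upper dashed line, and Spp1, Cytl1, Chad and Fmod lie far below the lower one, while Ccl11 lies near equality.

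To see how the Pi16-negative cells vary among themselves, they were clustered on 2000 variable genes with Ptx3 and the genes of the rule left out. There were 12 clusters of 25 to 103 cells. The leading genes of a cluster describe it and are not a finding. Cluster 8 (67 cells) was led by Ccl19, Sfrp1, Il6, C3 and Col6a6. In it 32 cells had Ptx3 (47.8%, 35.4 to 60.3), at 1134 CPM, and it held 32.7% of the Ptx3-positive cells and 74.3% of the Ptx3 UMIs. Cluster 4 (95 cells; Mmp3, Cfb, Ccl2, Ptgs2, Plau) followed with 19 cells (20.0%, 12.5 to 29.5) at 84.3 CPM. Clusters 9, 6 and 5 had 13.6%, 13.3% and 11.8% of cells with Ptx3, and their intervals overlapped with that of cluster 4. The interval of cluster 8 overlapped with none of the other 11.

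Ptx3 was not found in 2 clusters, and both carried markers that go against a loose connective-tissue label. Cluster 3 (96 cells; Kera, Angptl7, Fmod, Cilp2, Atp6v0a4) had 10 of 14 tendon markers at least 2-fold above the other cells, although each cell had 0 Tnmd UMIs. Its count of 0 in 96 cells allows a share of cells with a Ptx3 UMI of up to 3.12% by the limit of 3 counts, and of up to 3.77% by the exact binomial interval. Cluster 12 (25 cells; Ibsp, Spp1, Cytl1, Susd5, Scrg1) had 7 tendon, 4 chondrocyte and 3 osteoblast markers at that level, and 0 of 25 allows a share of up to 12% or 13.7% by the same limits. Together they make up 10.4% and 2.72% of the Pi16-negative cells.

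The other clusters differed in the remaining genes of the label. Ccl11 stood at 1268 CPM in cluster 6 (90 cells; Tfpi2, Fgl2, Casp4, Ccl11, Ifi203), at 684 CPM in cluster 11 (49 cells; Mdk, Clec1a, Ntf3, Ggt5, Fst), at 374 CPM in cluster 1 and at 366 CPM in cluster 10 (64 cells; Tmem204, Nrep, Meox1, Plekha6, Rhobtb3). It had 0 UMIs in clusters 3 and 12. Smoc2 was highest in clusters 6, 11 and 10, at 1361, 1309 and 1046 CPM, and stood at 0.856 CPM in cluster 7. Clusters 10 and 11 had Ptx3 in 2 of 64 cells (3.12%, 0.381 to 10.8) and 1 of 49 (2.04%, 0.0517 to 10.9). Both intervals include the 10.7% of all Pi16-negative cells. Cluster 6, highest in Smoc2 and Ccl11, had Ptx3 in 13.3% of cells. Cluster 6 had 12 of 17 perivascular fibroblast markers at least 2-fold above the other cells, among them Col15a1, Cxcl12 and Apod, and cluster 8 had 9 of the 17, among them Ccl19 and Vcam1. Clusters 11, 4 and 10 had 7, 6 and 5 of the 17.

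Cluster 7 (69 cells; Clic5, Chmp4c, Hhip, Mal, Cpn1) had 8 of 11 lining markers, with Cd55 at 2080 CPM. Cluster 2 (102 cells; Stra6, Pthlh, Crabp2, Bcat1, Gjb5) had the highest Crabp2, at 646 CPM, but only 2 of the 11 (Crabp2 and Itga6). Both were deep, with medians of 16976 and 14799.5 UMIs per cell, and had Ptx3 in 7.25% and 5.88% of cells. Cluster 9 (66 cells; Rorb, Rspo2, Efemp1, Opcml, Adra1b) had 9 of 18 markers of universal fibroblasts, among them Dpp4, Sema3c and Cd55, in spite of 0 Pi16 UMIs per cell. Cluster 5 (93 cells) was led by Egfl6, Hs3st1, Rspo1, Ier3 and Dkk2. Cluster 1 (103 cells; Rab3il1, Snhg20, Ddit4, Clec2d, Hist1h1e) was the shallowest, with a median of 5363 UMIs and 4.20% mitochondrial counts, and had Ptx3 in 1 cell.

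**Figure D3:**
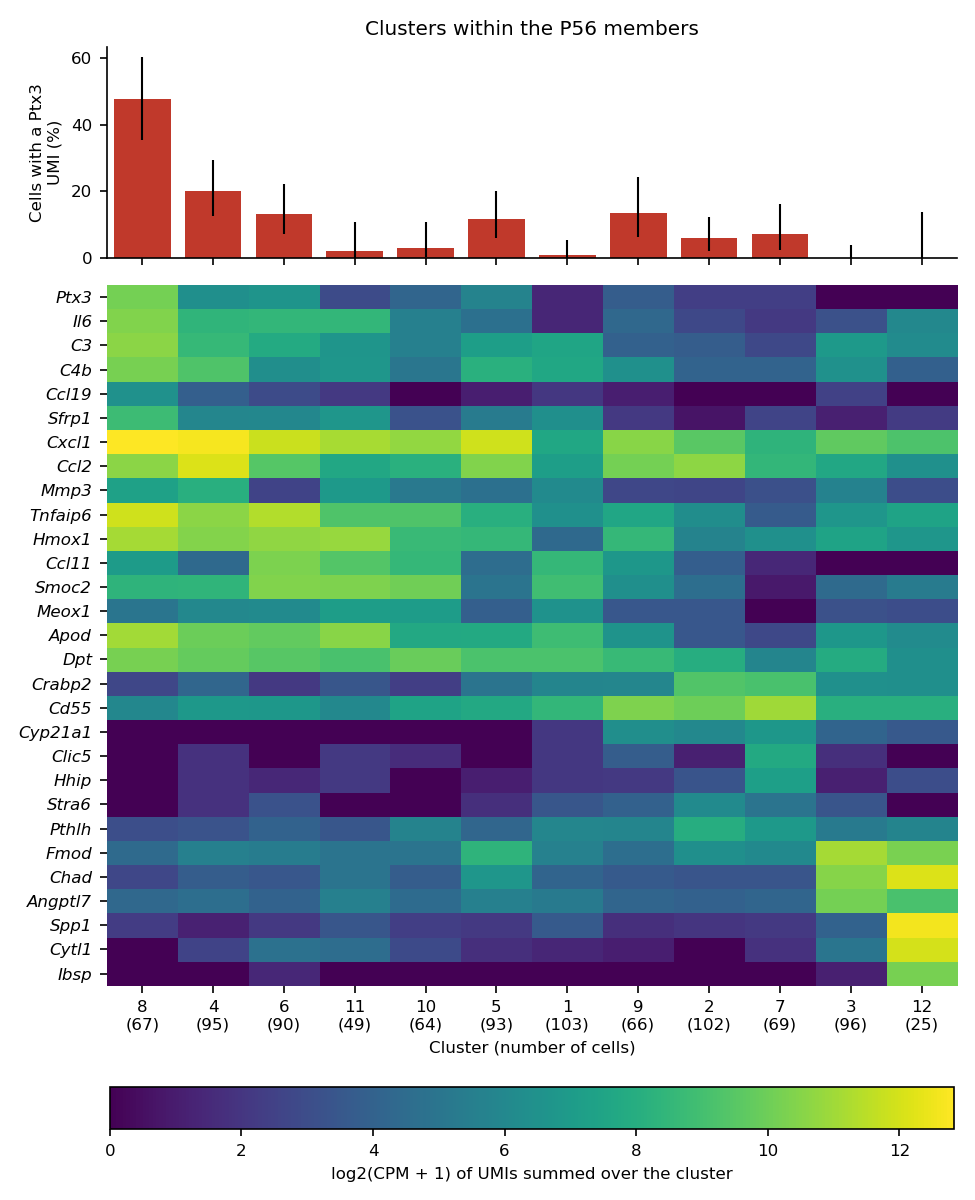
Top, share of cells with a Ptx3 UMI in each of the 12 clusters of Pi16-negative cells with exact binomial 95% intervals; bottom, log2(CPM + 1) of 29 genes in the same clusters, with the number of cells in parentheses; the title's members are the 919 cells. Cluster 8, with 47.8% of cells positive, also has the highest Il6, C3 and Tnfaip6, and clusters 3 and 12 have no Ptx3 UMI.

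The contrast of cells with and without Ptx3 was then repeated with the negative cells weighted to the same cluster make-up as the positive ones, a comparison added after seeing the data. Of the 119 genes other than Ptx3 that were at least 2-fold higher, 98 still had a ratio above 1 and 16 still reached 2-fold, and their median log2 ratio went from 1.21 to 0.34. Il6 went from 2.0 to −0.077, C3 from 1.92 to 0.15, C4b from 1.67 to −0.063, Cxcl1 from 1.18 to −0.019 and Tnfaip6 from 1.43 to −0.29. Hmox1 kept 0.47 and Cyp1b1, a cytochrome P450 gene, 1.42. Fmod went from −2.66 to −0.54, and Ptgs2 from 0.88 to −1.03. Il6, C3 and Tnfaip6 were among the genes that formed the clusters, so a smaller difference within clusters was partly built in.

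Within cluster 8 alone, 32 cells with Ptx3 (2235 CPM of it) stood beside 35 without. Of 643 genes with at least 100 UMIs there, 7 besides Ptx3 were at least 2-fold higher and 7 lower. The higher genes were Ccl2 (2071 against 999 CPM, log2 1.05), Smoc2 (434 against 204 CPM, 1.09), the matrix protein gene Thbs4 (423 against 170 CPM, 1.32), Thbd, which encodes thrombomodulin, Akr1a1, Tm4sf1 and Glul. The lower ones were Fos (382 against 1593 CPM, −2.06), Ptgs2 (412 against 1238 CPM, −1.59), Igfbp5, Mgp, Cxcl14, Cxcl10 and Ier3. Il6 (1243 against 1466 CPM, −0.24) and C3 (1730 against 1419 CPM, 0.29) differed by less than 2-fold.

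**Figure D4:**
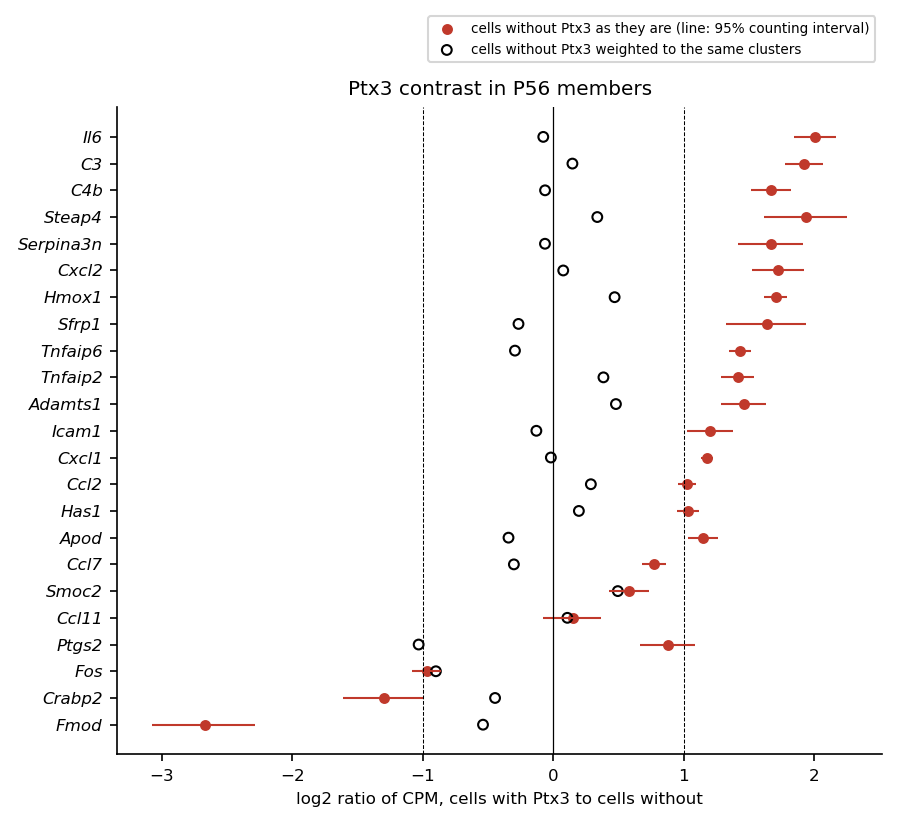
Log2 ratio of CPM in cells with Ptx3 to cells without, for 23 genes; filled points with 95% counting intervals use the negative cells as they are, open points weight them to the clusters of the positive cells, and dashed lines mark 2-fold. Il6, C3 and Tnfaip6 lie above 2-fold unweighted and near 0 weighted, while Fos is near −1 in both.

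The first 250 bases before the start of transcription of Ptx3, Il6 and Cxcl1 are shown because these genes stood together in the contrast. The sequences are from RefSeq on build GRCm38.p6, each on the plus strand and written 5′ to 3′. Capitals mark 3 motifs searched on both strands, which were chosen after the sequences had been seen: GGG followed by NN and TTTCC (a kappaB-type site, N standing for any base), TGANTCA (the AP-1 site) and TTGNGCAA (a site of the C/EBP type).
Ptx3, chr3:66219637-66219886, plus strand: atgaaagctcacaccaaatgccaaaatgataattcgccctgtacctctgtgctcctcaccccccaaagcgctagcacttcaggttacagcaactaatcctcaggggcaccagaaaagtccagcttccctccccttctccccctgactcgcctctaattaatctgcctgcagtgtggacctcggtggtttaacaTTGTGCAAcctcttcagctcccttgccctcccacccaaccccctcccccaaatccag
Il6, chr5:30012864-30013113, plus strand: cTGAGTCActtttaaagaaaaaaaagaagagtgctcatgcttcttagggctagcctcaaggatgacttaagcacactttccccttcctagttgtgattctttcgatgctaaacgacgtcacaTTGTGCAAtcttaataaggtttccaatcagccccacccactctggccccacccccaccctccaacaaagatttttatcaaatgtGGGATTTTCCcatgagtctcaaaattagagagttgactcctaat
Cxcl1, chr5:90890995-90891244, plus strand: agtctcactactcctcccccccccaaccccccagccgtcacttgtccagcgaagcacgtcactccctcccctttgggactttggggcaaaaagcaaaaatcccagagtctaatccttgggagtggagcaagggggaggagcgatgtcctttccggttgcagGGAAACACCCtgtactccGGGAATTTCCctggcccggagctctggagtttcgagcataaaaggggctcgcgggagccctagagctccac
Ptx3 held TTGTGCAA, starting 57 bases before its start, and neither of the other motifs. Il6 held the same letters starting 128 bases before its start, a kappaB-type site at 44 and an AP-1 site next to the far end of the window. The longest run shared by the Ptx3 and Il6 windows was ACATTGTGCAA, of 11 bases, which is in 8 of 32851 promoters of the table (0.0244%). Cxcl1 held 2 kappaB-type sites, starting 89 and 71 bases before its start. The kappaB-type motif was in 1.41% of all promoters of this length, AP-1 in 6.75% and the C/EBP type in 2.61%. Of the 120 genes at least 2-fold higher in cells with Ptx3, Ptx3 included, 88 matched the table. The kappaB-type motif was in 10 of them (11.4%, against 1.68% of all tested genes matched), among them Cxcl2, Steap4, Serpina3n and the genes Il6 and Cxcl1 shown above. The adjacent genes Tmem176a and Tmem176b, also among the 10, have windows that overlap. AP-1 was in 11 (12.5% against 5.42%), among them Tnfaip6, Mmp3 and Il6. The C/EBP type was in 6, but these include Ptx3, which defines the sets, and Il6, so their share is not read further. The motifs were chosen with the Il6 and Cxcl1 windows already seen. Il6 is in the kappaB-type and AP-1 counts and Cxcl1 in the kappaB-type count, so those shares are not read further either. The motif hits are matches of letters and not binding sites. Cebpb and Cebpd, which encode C/EBP factors, stood at 977 against 550 CPM (log2 0.83) and 1583 against 984 CPM (0.69) in cells with and without Ptx3.

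The younger libraries played no part in choosing the P56 cells and gave the contrast again, with the same rule. At P11, 61 cells with Ptx3 were set against 428 without, and 79 of the 119 genes were measured. A ratio above 1 was found for 53 of the 79 (67.1%, against 53.1% of all genes at P11), and 11 (13.9%) were at least 2-fold higher, where 0.663% of all genes were (2.49% were lower by that much). The 11 are 24.4% of the genes at least 2-fold higher at P11. They were Tnfaip6, Cxcl1, Cxcl2, Ccl2, Hmox1, Tnfaip2, Fgl2, Sfrp2, Gstm2, Tfpi2 and Hk2. Tnfaip6 stood at 483 against 169 CPM (log2 1.52, 1.36 to 1.68), Cxcl1 at 1213 against 484 CPM (1.32, 1.23 to 1.42) and Hmox1 at 127 against 49.1 CPM (1.37). Of the Cxcl2 UMIs in positive cells, 58.1% came from 1 cell.

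Il6 and the complement genes did not repeat at P11. Il6 stood at 41.2 against 33.8 CPM (log2 0.29, −0.23 to 0.78), with 75.6% of the UMIs of positive cells in 1 cell, and C4b at 58.3 against 63.0 CPM (−0.11, −0.54 to 0.29). C3 was low, at 8.05 against 16.6 CPM from 8 and 103 UMIs (−1.04, −2.29 to −0.01). At P18 only 10 cells had Ptx3, and 44 of the 119 genes were measured. Of these 32 had a ratio above 1 (72.7%, against 49.1% of all genes) and 21 were at least 2-fold higher (47.7%, where 4.74% of all genes were, and 8.95% were lower). There Tnfaip6 stood at 787 against 69.9 CPM and Cxcl1 at 2146 against 316 CPM, with 46.2% and 65.3% of the UMIs in 1 cell, and all 87 Ccl2 UMIs of positive cells came from 1 cell. Of 6 complement genes measured at P18, C1ra, C1s1, C4b and Serping1 were at least 2-fold higher, and Cd55 was lower by that much. C4b had a log2 ratio of 2.41 there, with 52.4% of the UMIs of positive cells in 1 cell. Of the 308 lower genes, 117 of 222 measured at P11 had a ratio below 1 (52.7%, against 46.9% of all genes), and 24 (10.8%) were at least 2-fold lower. At P18, 34 of 40 had a ratio below 1 (85%, against 50.9% of all genes) and 15 (37.5%) were at least 2-fold lower. Col2a1, the collagen of cartilage, had at least 1 UMI in 48.1% of the rule-matched cells at P11, 65.0% at P18 and 0.979% at P56. Cells with under 5 Col2a1 UMIs numbered 409 of 489 at P11, 117 of 234 at P18 and 918 of 919 at P56. The rest are called Col2a1-rich here. Without cells having at least 5 Col2a1 UMIs, added after seeing the data, Tnfaip6, Cxcl1 and Hmox1 kept log2 ratios of 1.28, 1.11 and 2.15 at P11.

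**Figure D5:**
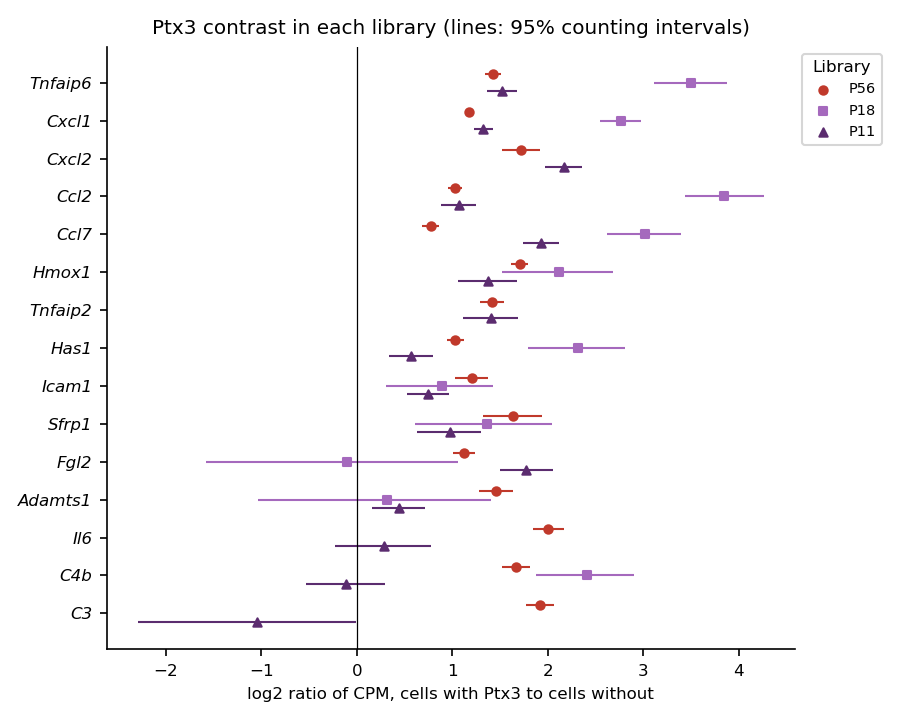
Log2 ratio of CPM in cells with Ptx3 to cells without, for 15 genes in each droplet library, with 95% counting intervals; a gene under 100 UMIs in a library has no point. Tnfaip6, Cxcl1 and Hmox1 lie above 1 in the 3 libraries (at P18 from 10 positive cells), while Il6 and C4b are near 0 at P11 and C3 is below 0 there.

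Few genes differed at least 2-fold between the Pi16-negative and the Pi16-positive cells of the same library. Of 7886 genes measured, 73 were at least 2-fold higher in Pi16-negative cells (0.926%) and 60 lower (0.761%). Of 18 universal fibroblast markers, Smpd3, a neutral sphingomyelinase, was the only one besides the rule gene Pi16 to differ by that much (6.31 against 25.5 CPM, log2 −2.02). The muscle genes Acta1, Tnnt3, Ckm, Tnni2 and Mylpf, the 5 measured, were higher in Pi16-negative cells (median log2 ratio 1.77), with 76.2% to 88.8% of the UMIs of each in 1 cell. Of the tendon genes, 8 of 12 were higher in Pi16-negative cells, with a median log2 ratio of 1.55. Fmod, which encodes fibromodulin, stood at 320 against 81.6 CPM (1.97, 1.74 to 2.21), Comp at 1456 against 476 CPM (1.61), Chad at 299 against 57.1 CPM (2.39) and the tendon transcription factor Scx at 39.1 against 14.0 CPM (1.48). Fmod and Chad were highest in clusters 3 and 12, the tendon-marker clusters described above. Of the Fmod UMIs in Pi16-positive cells, 46.6% came from 1 cell.

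Few matrix genes were at least 2-fold lower in Pi16-negative cells: 3 of 27 elastic fibre and matricellular genes (Eln, Mfap4 and Sparcl1), 2 of 11 basement membrane genes (Nid1 and Lamb1) and 1 of 15 perivascular fibroblast markers (Lpl). The median of the first list was −0.04, beside −0.03 for all genes. Ccl11 stood at 176 against 447 CPM (log2 −1.35, −1.47 to −1.23), the matricellular Sparcl1 at 170 against 481 CPM (−1.50), elastin Eln at 9.64 against 33.6 CPM (−1.80, −2.28 to −1.32), the microfibril gene Mfap4 at 6.09 against 35.6 CPM (−2.54) and the basement membrane gene Nid1 at 147 against 328 CPM (−1.16). Smoc2 was lower by less than 2-fold (287 against 548 CPM, −0.93). So all 3 label genes beside Pdgfra (Ccl11, Smoc2 and Ptx3) were higher in the Pi16-positive cells. The defence genes of the Ptx3 contrast did not differ 2-fold between these sets: Il6 had a log2 ratio of 0.18 (−0.01 to 0.37), Tnfaip6 0.06, C3 −0.43 and Cxcl1 0.85. The interferon genes Ifit1 and Isg15 were lower in Pi16-negative cells, but 1 Pi16-positive cell held 86.2% and 64.7% of their UMIs.

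Against the Tnmd-positive tendon cells, 330 of 8668 genes were at least 2-fold higher in Pi16-negative cells (3.81%) and 198 lower (2.28%). Only the Pi16-negative cells were chosen by Pdgfra, and what that adds to the differences was not tested. TMM scaling, which moved the median log2 ratio of all genes from 0.19 to 0.03, gave 230 and 246. Tendon genes were lower, 12 of 14, one of them Tnmd, whose difference the choice of cells fixed. Fmod stood at 320 against 4795 CPM (log2 −3.90), Angptl7 at 147 against 2446 CPM (−4.06), and Scx at 39.1 against 176 CPM (−2.17). The type I collagen genes Col1a1 (1849 against 6367 CPM, −1.78) and Col1a2 (−1.64) and the crosslinking enzyme Lox (−2.42) were lower as well, whereas Col3a1, a gene of the rule, was 0.48. Universal fibroblast markers were higher, 8 of 16, with Cd55 at 698 against 184 CPM (1.92) and the growth factor Wnt2 at 81.8 against 13.7 CPM (2.57). Ccl11 stood at 176 against 19.5 CPM (3.17, 2.91 to 3.44) and Smoc2 at 287 against 72.4 CPM (1.99). The 5 measured muscle genes were higher (median 2.39), again with most UMIs of each in 1 Pi16-negative cell. C3 and C4b were lower in Pi16-negative cells (−1.11 and −1.13), as were the metallothioneins Mt1 (−1.08) and Mt2 (−1.08). Tnfaip6 did not differ beyond counting error (670 against 654 CPM, 0.03, −0.02 to 0.09).

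Between ages the rule-matched cells differed in defence and matrix genes, but age, library, software version and the make-up of the pools cannot be told apart. After thinning, Xist, the RNA of the inactive X chromosome, was found in 71.0% of rule-matched cells at P11, 23.8% at P18 and 0 of 912 at P56. Against P11, 402 of 9143 genes were at least 2-fold higher at P56 (4.4%) and 645 lower (7.05%), and TMM scaling, which moved the median log2 ratio of all genes from −0.08 to 0.05, gave 503 and 512. Against P18, 916 of 8042 were higher (11.4%) and 493 lower (6.13%). The 2 comparisons share the P56 cells.

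Complement genes were higher at P56: of 11, 8 were at least 2-fold higher than at P11 and 8 than at P18. Of 8 acute-phase and metal-binding genes, 7 were higher than at P11, but only 3 than at P18 (Mt1, Mt2 and Serpina3n), and Hif1a was lower than at P18. C3 stood at 192 CPM at P56, 15.4 at P11 (log2 3.64, 3.37 to 3.93) and 14.2 at P18 (3.76). Mt1 stood at 8208 CPM at P56, 1580 at P11 and 2688 at P18. Without cells having at least 5 Col2a1 UMIs, its difference from P18 was below 2-fold (log2 0.90), while C3 kept 3.41 and 2.65. Il6 stood at 155 CPM at P56, 34.8 at P11 and 3.35 at P18, and Hmox1 at 557, 59.8 and 74.0 CPM. The label genes were also higher at P56: Ccl11 stood at 176, 53.9 and 43.1 CPM, and Smoc2 at 287, 125 and 128 CPM. Without the Col2a1-rich cells, the difference of Ccl11 from P18 was below 2-fold (0.88).

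Collagen genes were lower at P56. Of 10 fibrillar collagen genes, 9 were lower than at P11 and 7 than at P18. Col1a1 stood at 1849 CPM at P56, 7711 at P11 (log2 −2.06) and 6252 at P18 (−1.76). The matrix genes Postn (41.5, 1088 and 261 CPM) and Eln (9.64, 78.3 and 45.6 CPM) were lower too. The tendon gene Fmod depended on the Col2a1-rich cells: it stood at a log2 ratio of −1.0 to P11 with them and 1.82 without, and at −2.05 and −0.13 to P18. Angptl7 was higher at P56 in every form of the comparison (6.59 and 6.36 to P11, 4.21 and 3.06 to P18).

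Whether the counts of the Gli1-lineage plates are UMIs is not stated in the sources used here, so the rule's thresholds may not mean the same there. With those thresholds, 65 of 647 kept wells met the rule, from 2 wells at P7 to 14 at P42. Ptx3 was found in 9 of them: 4 at P14, 2 at P21 and 1 each at P11, P28 and P42. Over all kept wells, 32 had Ptx3, with 105 counts, of which 43 were at P14 and 32 at P21. No plate was as old as the P56 library, and no level was set across the assays.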

How the data were processed

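Droplet and plate libraries held counts per gene and cell or well as the authors deposited them, with no normalization found in the values. The droplet matrices were written by the 10x software 3.1.0 (P11, P18) and 3.0.2 (P56) per the file headers, on build mm10 per the submitters' processing notes. Aligner, annotation and read filters are not given in the sources used here. Cells were kept at 500 genes or more and 10% mitochondrial counts or less. The members and gene lists were chosen with earlier results of these data known. Counts were summed over cells and scaled to 1000000 per set (CPM), with exact Poisson, binomial (Clopper-Pearson) and conditional ratio intervals at 95%. A set at 0 was given 3 counts. Genes with at least 100 UMIs over both sets entered a comparison, and 2-fold was the threshold. Named genes are rule and label genes, up to 4 extremes and the most abundant of each list, the 10 highest and lowest ratios, and 5 leading genes per cluster; genes shown for comparison across settings were added after seeing values. Shares were also taken after thinning to 2000 UMIs per cell. Clusters used scanpy 1.11.5 (30 components, 15 neighbours, Leiden resolution 1). Doublets were kept: Scrublet's own threshold called 0.0339%, 0.0185% and 0.0585% at P11, P18 and P56, under what a working caller gives, and removal of the highest scores was an alternative. TMM used edgeR 4.0.16 for scaling only. The ratio code was tested on simulated counts.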

Additional observations from a re-analysis of the deposited data

Results flagged for a closer look

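With 1 library per age, the difference between ages was not tested for any gene here. C3 was at least 2-fold higher in P56 cells with Ptx3 (log2 1.92) and at least 2-fold lower in P11 cells with Ptx3 (−1.04, 95% interval −2.29 to −0.01, from 8 UMIs in positive cells), with counting intervals that leave out 0 on both sides. Acta2, an actin of contractile cells, was lower at P56 (−1.30) and higher at P11 (2.45), where 1 cell held 81.3% of the UMIs of the positive cells. Ube2c, a cell-cycle gene, was lower at P56 (−1.28, all 9 UMIs of positive cells in 1 cell) and higher at P11 (1.12). Of the 183 Ube2c UMIs in all Pi16-negative cells at P56, 62.3% came from 1 cell, one without Ptx3.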

How the results depend on the processing

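No paired analysis was possible because no age has a replicate library and cells carry no replicate number. Of the alternatives to the counts and shares, 79 stayed within 1.5 times (a share within its interval) and 39 did not. Requiring 2 Pdgfra UMIs left 564 Pi16-negative cells, and thinning gave a Ptx3 share of 5.81%. Clustering at resolution 0.5 gave 29.9% as the highest Ptx3 share of a cluster. Counts follow as higher and lower genes. In the Ptx3 contrast at P56 they were 45 and 95 when thinned, which leaves fewer genes to test, 50 and 45 at 400 UMIs or more, 241 and 1160 for 2 Ptx3 UMIs or more, 39 and 119 when weighted by cluster, and 637 lower at 50 UMIs or more. Against Pi16-positive cells they were 37 and 26 thinned, 170 and 125 at 50 UMIs, 19 and 20 at 400 UMIs. The mean of per-cell CPM gave 134 higher, 2 Pi16 UMIs or more 148, and leaving out genes with over 20% of UMIs in 1 cell 44. Against Tnmd-positive cells they were 163 and 89 thinned, 139 and 93 at 400 UMIs, and 566 higher for 5 Tnmd UMIs or more. P56 against P11 gave 222 and 183 thinned, 219 and 243 at 400 UMIs, and 977 lower at 50 UMIs. P56 against P18 gave 381 and 170 thinned, 415 and 207 at 400 UMIs, and 524 higher without Col2a1-rich cells. Without those cells the Ptx3 contrast gave 49 lower at P11, and 31 and 107 at P18. Weighting by cluster turned the sign of 10 genes: Il6 (−0.077), C4b (−0.063), Cxcl1 (−0.019), Cxcl12 (−0.22), Tnfaip6 (−0.29), Serpina3n (−0.064), Icam1 (−0.13), Sfrp1 (−0.27), Il1r1 (−0.0038) and Apod (−0.34). For the genes followed across settings in the P56 Ptx3 contrast, 332 results stayed the same. Another 39 fell below 2-fold with the sign kept, 5 rose to 2-fold, and 13 below 2-fold left their interval. Of the 39, 17 came from the weighting, 7 from thinning, 7 from the mean of per-cell CPM and 4 from 2 Pdgfra UMIs or more. Resolution 0.5, the weighting, the limit on 1 cell's UMIs and the removal of Col2a1-rich cells were chosen after seeing the data. The cause of these changes was not tested, apart from the number of genes or cells left. The P18 contrast rests on 10 positive cells.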
